A study of Mus musculus with 6 samples.

Results

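The 37 genes described here encode collagens and other proteins of the extracellular matrix, and they were picked by symbol from the 16775 genes measured in mouse osteoclast cultures. They were sorted by the role of their protein into 7 classes, namely 6 fibrillar collagens, 8 basement membrane genes, 6 other collagens, 5 genes of elastic and adhesive glycoproteins, 4 matricellular genes, 3 small leucine-rich proteoglycans and 5 genes of crosslinking and processing. The cells of both groups were wild-type bone marrow macrophages from mouse tibia and femur, kept in 10% serum with M-CSF at 30 ng/ml and brought to the osteoclast fate by adding RANKL at 50 ng/ml. One group also received verapamil, a drug that blocks L-type calcium channels, and the other is labelled as control. The labels give neither the dose, the timing of the drug, the vehicle, nor the strain, sex and age of the mice. The sample titles give day 5, but the protocol runs to a later day. Labels describe 3 samples per group, and 2 control libraries (replicates 1 and 3) and 3 verapamil libraries were compared; control replicate 2 was not analysed here. Library totals ran from 20202340 to 21494523 estimated counts. The labels do not tell whether replicates were separate mice or dishes, and a p-value here covers only the spread among the 5 libraries, possibly technical.

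Collagens are trimers whose chains share long runs with glycine at regular intervals. Fibrillar collagens, chiefly type I, give bone its tensile strength, while type IV collagen, laminins, nidogen and perlecan form the sheets called basement membranes. Procollagen is folded with the help of the chaperone HSP47, trimmed outside the cell and then crosslinked by lysyl oxidases. In bone most of this matrix is made by osteoblasts and other mesenchymal cells, and the osteoclast, a cell of the macrophage lineage, is known for dissolving it. Matricellular proteins such as SPARC, periostin and tenascin-C act more on cell adhesion and signalling than on tensile strength.

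Most of the matrix genes had lower levels with verapamil. Of the 37 genes, 35 passed the filter on low counts, and 32 of these fell in edgeR's quasi-likelihood test (Benjamini-Hochberg adjusted p under 0.05, over all 12619 genes tested), 0 rose and 3 were not called. Across all tested genes 15.4% were called lower and 9.99% higher. The median log2 fold change (verapamil over control, so that negative values are lower with the drug) was -1.42 over the 35 genes and -0.01 over all tested genes. A fall of at least 2-fold was called for 27 of the 35, against 10.7% of all tested genes. In 33 of the 35 every verapamil library lay below every control, as it did for 29.0% of all tested genes. Their summed level was 3624 and 4653 CPM (counts relative to the TMM-scaled library size, as edgeR's cpm function gives them) in controls 1 and 3, and 1585, 1728 and 1635 CPM in verapamil 1, 2 and 3. Fn1, Col1a2 and Col1a1 together made up 47.9% to 50.9% of this sum in every library. These are bulk libraries, in which fewer cells of a type and less RNA per cell cannot be told apart.

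**Figure D1:**
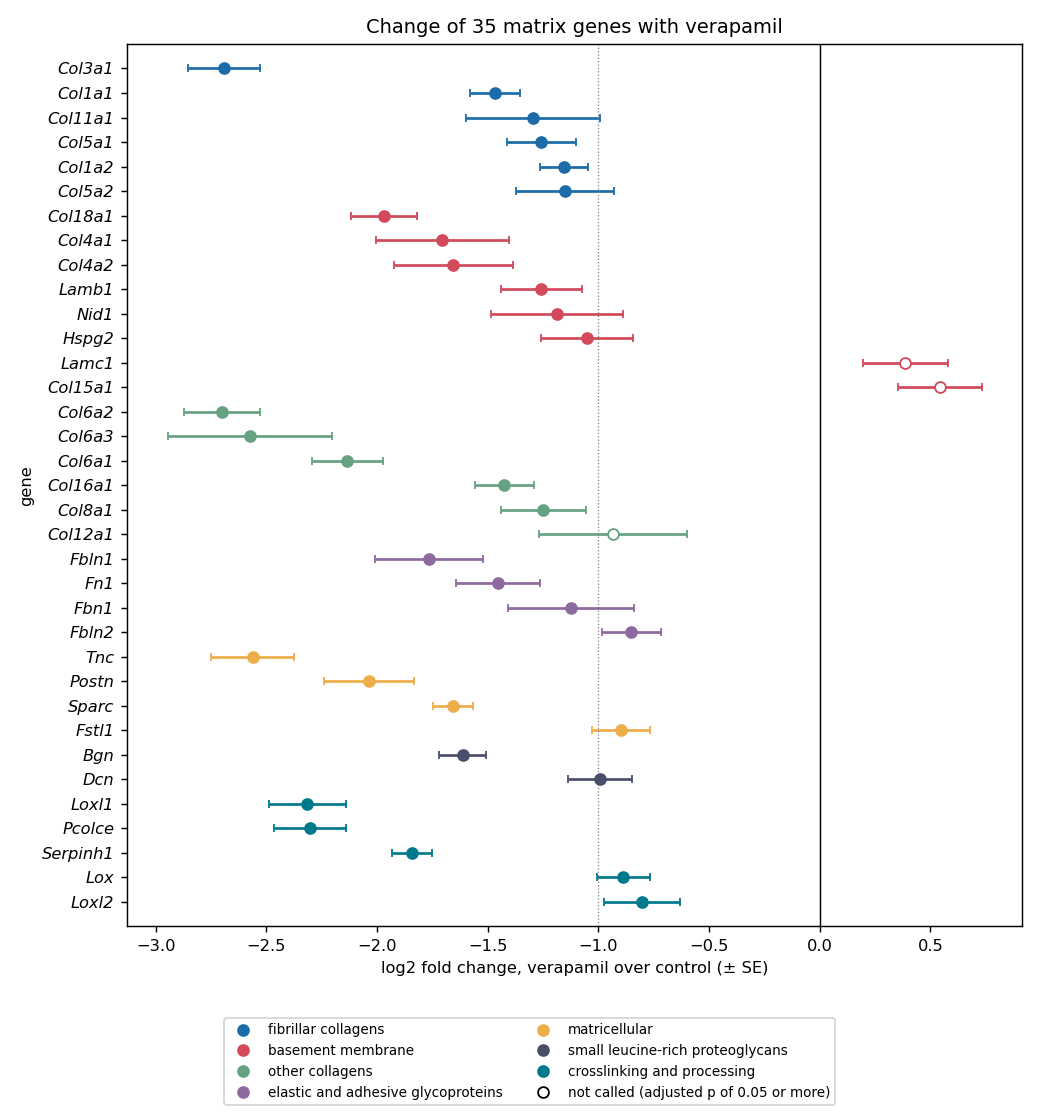
Log2 fold change (verapamil over control, x axis) with its standard error for the 35 tested matrix genes (y axis), coloured by class, with filled points for genes called at an adjusted p under 0.05. Of the 35 points 33 lie left of 0, and the open points are Col12a1, Lamc1 and Col15a1.

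The 250 bases before the annotated start of 4 of the genes that fell are printed to show the sequence that precedes genes moving together. They are Serpinh1 and Sparc, which had the largest test statistics of the 35 genes, Col1a2, the collagen with the highest level, and Col3a1, the collagen with a single annotated start whose fall was largest. Sequences are from RefSeq on GRCm38.p6, written 5′ to 3′ on the strand of the gene, with capitals at matches, on either strand, to CCAAT (the CCAAT box), GGGCGG (the GC box), TATAAA (the TATA box), TGANTCA (a form of the AP-1 site) and TGTGGT (a core of RUNX sites).
Serpinh1 chr7:99353240-99353489 (minus strand): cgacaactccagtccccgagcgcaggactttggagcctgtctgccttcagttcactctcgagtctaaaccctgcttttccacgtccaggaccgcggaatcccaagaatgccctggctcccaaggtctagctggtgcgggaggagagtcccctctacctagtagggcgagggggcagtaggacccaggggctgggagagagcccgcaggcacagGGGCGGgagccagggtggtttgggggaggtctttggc
Sparc chr11:55420081-55420330 (minus strand): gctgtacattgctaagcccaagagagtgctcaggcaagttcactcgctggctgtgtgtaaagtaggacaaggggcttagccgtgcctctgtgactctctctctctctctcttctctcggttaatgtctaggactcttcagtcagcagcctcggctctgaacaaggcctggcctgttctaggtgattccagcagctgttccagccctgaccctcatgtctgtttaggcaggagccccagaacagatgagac
Col1a2 chr6:4505368-4505617 (plus strand): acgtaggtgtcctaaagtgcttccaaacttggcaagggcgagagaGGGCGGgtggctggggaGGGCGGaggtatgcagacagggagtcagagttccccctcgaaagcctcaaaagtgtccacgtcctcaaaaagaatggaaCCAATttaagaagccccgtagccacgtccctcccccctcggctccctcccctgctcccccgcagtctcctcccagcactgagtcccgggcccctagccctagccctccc
Col3a1 chr1:45311288-45311537 (plus strand): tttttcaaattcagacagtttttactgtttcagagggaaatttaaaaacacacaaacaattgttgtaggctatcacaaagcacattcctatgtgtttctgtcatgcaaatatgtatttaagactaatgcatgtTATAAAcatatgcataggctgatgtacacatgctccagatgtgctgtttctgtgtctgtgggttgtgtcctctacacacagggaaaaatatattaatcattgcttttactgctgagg
Col1a2 has GGGCGG beginning 205 and 188 bases before its start and CCAAT beginning 109 bases before it, Serpinh1 has GGGCGG at 37 bases, Col3a1 has TATAAA at 117 bases and Sparc has 0 matches. Among the 37 genes 26 had an entry, with 31 windows in all. GGGCGG was present in 21 of these 31 windows (67.7%), compared with 56.7% of the 12897 windows of tested genes and 32.7% of all 32851 windows. CCAAT was in 8 windows (25.8%, against 35.4% for tested genes and 33.8% for all) and TATAAA in 4 (12.9%, against 6.72% and 12.4%). TGANTCA was in 1 window (3.23%, against 4.69% and 6.75%) and TGTGGT in 2 (6.45%, against 10.8% and 14.0%). None of the motifs contains another, and a match is a description of these letters only.

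All 6 fibrillar collagen genes fell, with log2 fold changes from -2.69 to -1.15. Col1a1 (Entrez 12842, chromosome 11, 94936224 to 94953042 on GRCm38) encodes the α1 chain of type I collagen, the main protein of bone. It had 355 and 433 CPM in controls 1 and 3, and 143, 147 and 138 CPM in verapamil 1, 2 and 3. Its log2 fold change was -1.47 (SE 0.113, edgeR adjusted p = 0.000743). Col1a2 (Entrez 12843, chromosome 6, 4505618 to 4541543), the gene of the α2 chain, had 528 and 622 CPM in the controls and 268, 245 and 262 CPM with verapamil, a log2 fold change of -1.15 (SE 0.109, adjusted p = 0.00127). For both genes of type I collagen the groups were well apart, and the controls lay further from each other than the verapamil libraries did.

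Col3a1, the gene of type III collagen, which accompanies type I in elastic tissues, fell most within the class. Its levels were 27.3 and 37.1 CPM in controls 1 and 3 and 4.72, 5.17 and 5.08 CPM in verapamil 1, 2 and 3 (log2 -2.69, SE 0.164, adjusted p = 0.000451). It lies on chromosome 1 at 45311538 to 45349706, next to Col5a2 (45374331 to 45503282, opposite strand), with 24624 bases between them. Type V collagen sets the diameter of type I fibrils. Its gene Col5a2 had 79.6 and 139 CPM in the controls and 50.7, 47.4 and 49.5 CPM with verapamil, a log2 fold change of -1.15 (SE 0.223, adjusted p = 0.014). Although these neighbours fell together, the control-to-control difference was 0.44 on the log2 scale for Col3a1 and 0.80 for Col5a2. Col5a1 had 46.9 and 64.6 CPM against 22.1, 24.4 and 23.4 CPM (log2 -1.26, SE 0.156, adjusted p = 0.00308). Col11a1, a chain of the minor fibrillar collagen of cartilage, had the lowest level and the highest adjusted p of the class, with 4.50 and 7.81 CPM in the controls and 2.56, 3.05 and 1.92 CPM with verapamil, a log2 fold change of -1.30 (SE 0.303, adjusted p = 0.0259). Leaving out any 1 of the verapamil libraries ended the calls of Col5a2 and Col11a1, with adjusted p from 0.0548 to 0.0935. Without control 3 their log2 fold changes were -0.69 and -0.84, and without control 1 they were -1.49 and -1.64.

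Genes of the basement membrane divided, with 6 of 8 lower and 2 not called. The α1 and α2 chains of type IV collagen, the network collagen of these sheets, are encoded by Col4a1 and Col4a2, which lie head to head on chromosome 8 (11198423 to 11312889 on the minus strand and 11312805 to 11449287 on the plus strand) and overlap by 85 bases. Col4a1 had 25.5 and 46.5 CPM in controls 1 and 3 and 8.12, 13.0 and 11.98 CPM in verapamil 1, 2 and 3. Col4a2 had 15.2 and 28.7 CPM in the controls and 6.30, 7.44 and 7.20 CPM with verapamil. Their changes were nearly equal, at -1.70 (SE 0.3, adjusted p = 0.0101) and -1.66 (SE 0.269, adjusted p = 0.00763). They were -1.21 and -1.13 without control 3, and -2.07 and -2.04 without control 1.

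Col18a1, whose product carries the fragment endostatin, fell most in this class. It had 14.5 and 16.4 CPM in the controls and 3.54, 4.39 and 3.89 CPM with verapamil, a log2 fold change of -1.97 (SE 0.149, adjusted p = 0.000694). Hspg2, the gene of perlecan, a heparan sulfate proteoglycan, had 76.9 and 115 CPM against 38.5, 52.7 and 47.6 CPM (log2 -1.05, SE 0.208, adjusted p = 0.0148). Nid1, which encodes the linker protein nidogen-1, had 27.3 and 58.0 CPM against 17.0, 20.04 and 19.2 CPM (log2 -1.19, SE 0.3, adjusted p = 0.0331). The change of Nid1 depended most on the control used, being -0.54 without control 3 and -1.63 without control 1. Its call was lost without verapamil 1, 2 or 3 (adjusted p = 0.122, 0.091 and 0.104), and that of Hspg2 without verapamil 1 or 3 (adjusted p = 0.0624 and 0.0598).

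Of the laminin chain genes Lamb1 fell and Lamc1 was not called, although their products join in the same heterotrimers. Lamb1, the β1 chain, had 37.3 and 50.9 CPM in controls 1 and 3 and 19.7, 20.1 and 15.4 CPM in verapamil 1, 2 and 3 (log2 -1.26, SE 0.183, adjusted p = 0.00522). Lamc1, the γ1 chain, had 40.3 and 61.7 CPM in the controls and 61.0, 70.5 and 68.5 CPM with verapamil, so that control 3 lay within the range of the treated libraries. It was not called (log2 0.39, SE 0.192, adjusted p = 0.184). Without control 3 its estimate was 0.73 and passed as higher (adjusted p = 0.000416), and without control 1 it was 0.12 (adjusted p = 0.404). Col15a1, the gene of a collagen at the outer face of basement membranes, had 2.79 and 3.54 CPM in the controls and 4.28, 4.49 and 5.08 CPM with verapamil. Every treated library lay above both controls, as for 27.7% of all tested genes, but it was not called (log2 0.54, SE 0.189, adjusted p = 0.0842), except without control 3 (0.73, adjusted p = 0.0134).

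**Figure D2:**
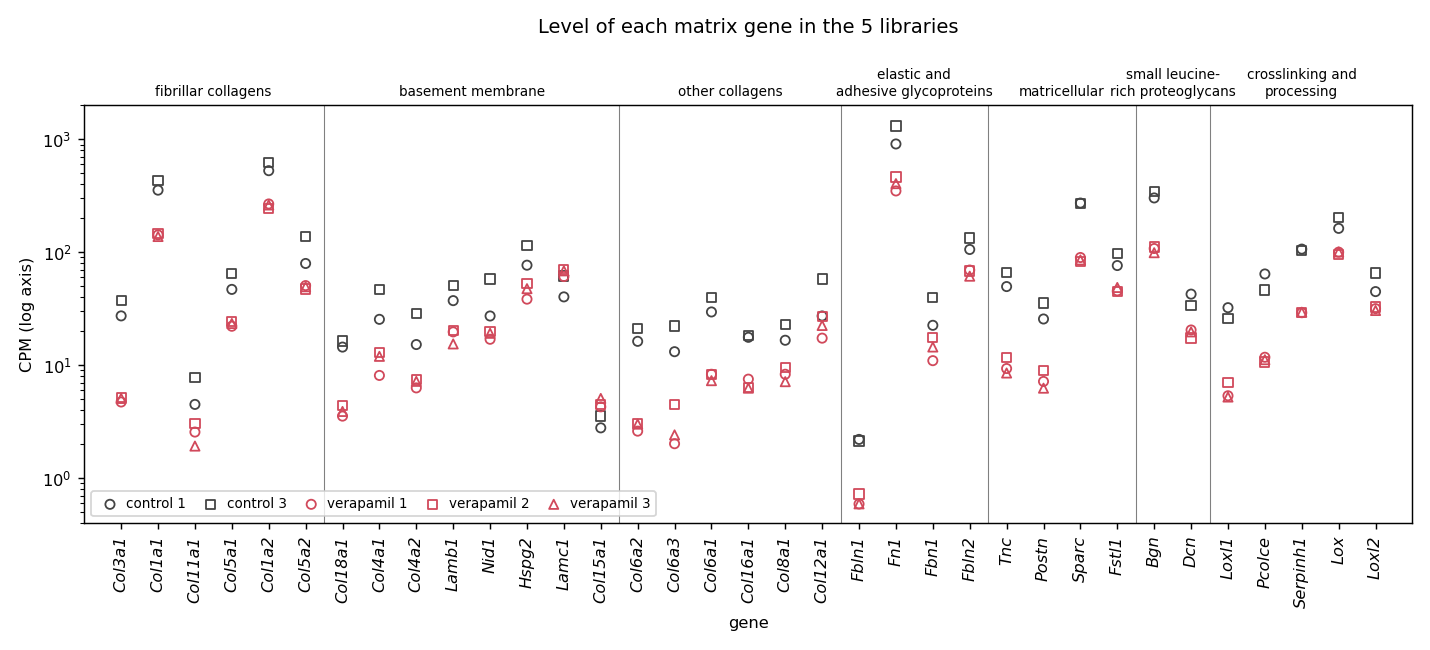
CPM on a log axis (y) of the 35 tested matrix genes (x), grouped by class, with 1 symbol for each of the 2 control (grey) and 3 verapamil (red) libraries. For 33 genes all red symbols lie below both grey ones, while Lamc1 overlaps and Col15a1 is higher in red.

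Among the other collagens, type VI showed the largest falls. Type VI collagen forms beaded filaments around cells from chains encoded by Col6a1, Col6a2 and Col6a3. Col6a2 had 16.3 and 21.3 CPM in controls 1 and 3 and 2.61, 3.05 and 3.01 CPM in verapamil 1, 2 and 3 (log2 -2.70, SE 0.172, adjusted p = 0.000531), which was the lowest log2 fold change of all 35 genes. Its neighbour on chromosome 10, Col6a1 (76708792 to 76726044, same strand, 85161 bases away), had 29.6 and 40.1 CPM in the controls and 8.31, 8.21 and 7.30 CPM with verapamil, a log2 fold change of -2.13 (SE 0.161, adjusted p = 0.000695). Col6a3, on chromosome 1, had 13.2 and 22.2 CPM against 2.02, 4.49 and 2.42 CPM (log2 -2.58, SE 0.371, adjusted p = 0.00497). Verapamil 2 stood above the other treated libraries for Col6a3 but not for Col6a1.

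The remaining collagens of this class had smaller log2 fold changes. Col16a1, of the collagens that sit on fibrils, had nearly equal controls, 17.7 and 18.3 CPM, and 7.53, 6.30 and 6.26 CPM with verapamil, a log2 fold change of -1.42 (SE 0.133, adjusted p = 0.00125). Col8a1, a short-chain network collagen, had 16.6 and 23.1 CPM against 8.31, 9.61 and 7.15 CPM (log2 -1.25, SE 0.193, adjusted p = 0.00637). Col12a1, a long fibril-associated collagen, had 27.28 CPM in control 1 and 57.9 CPM in control 3, and 17.4, 27.06 and 22.5 CPM in verapamil 1, 2 and 3. Control 1 lay just above verapamil 2, and Col12a1 was not called (log2 -0.93, SE 0.333, adjusted p = 0.0886). It passed as lower without control 1 (-1.37, adjusted p = 0.000485) and with DESeq2 (-0.91, adjusted p = 0.0215), whereas without control 3 its estimate was -0.29 (adjusted p = 0.212).

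Adhesive and elastic glycoproteins were lower in 4 of the 4 genes tested. Fn1 (Entrez 14268, chromosome 1, 71585473 to 71653280, minus strand) encodes fibronectin, which binds integrins, collagen and fibrin, and was the member with the highest CPM. It had 910.3 and 1316 CPM in controls 1 and 3 and 349, 464 and 406 CPM in verapamil 1, 2 and 3 (log2 -1.45, SE 0.19, adjusted p = 0.00359). Even the lower control was far above the highest treated library. Fbn1, the fibrillin of microfibrils, had 22.6 and 39.8 CPM against 10.97, 17.5 and 14.5 CPM (log2 -1.12, SE 0.285, adjusted p = 0.0334). Leaving out any 1 of the verapamil libraries ended its call (adjusted p from 0.0565 to 0.111), and it was -0.66 without control 3. Gm9913, on the opposite strand, overlaps 20.1% of its exon bases. The labels do not say whether counting used strand.

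The fibulins bind elastic fibres and basement membranes. Fbln2 had 106 and 134 CPM in the controls and 69.6, 68.4 and 61.4 CPM with verapamil, a log2 fold change of -0.85 (SE 0.132, adjusted p = 0.00648). Fbln1 stood far lower (0.593 CPM per kb in the controls, against 25.1 for Fbln2) but had the larger fall, from 2.20 and 2.14 CPM to 0.59, 0.723 and 0.592 CPM (log2 -1.76, SE 0.243, adjusted p = 0.0043). Eln, the gene of elastin, was at the edge of detection, with 1 and 5 counts in controls 1 and 3 and 3, 2 and 0 counts in verapamil 1, 2 and 3. The ratio of its summed counts, verapamil over control, was 0.635 with an exact 95% counting interval of 0.153 to 2.5. Differences within that range, of either sign, could not be resolved at this depth.

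The 4 matricellular genes all fell, with log2 fold changes from -2.56 to -0.90. Sparc (Entrez 20692, chromosome 11, 55394159 to 55420080, minus strand) encodes osteonectin, which binds collagen and calcium. Its controls were nearly equal at 273 and 269.9 CPM, and the verapamil libraries had 89.9, 83.1 and 85.6 CPM (log2 -1.65, SE 0.0898, adjusted p = 0.000437). Tnc, which encodes tenascin-C, had 49.7 and 66.3 CPM in the controls and 9.35, 11.6 and 8.53 CPM with verapamil, a log2 fold change of -2.56 (SE 0.187, adjusted p = 0.000669). Postn, the gene of periostin, had 25.7 and 35.5 CPM against 7.18, 8.94 and 6.26 CPM (log2 -2.04, SE 0.204, adjusted p = 0.00149). The treated means of Tnc and Postn were 16.9% and 24.4% of the control means. Fstl1, a secreted relative of follistatin, changed least, from 76.3 and 97.0 CPM to 45.6, 45.1 and 48.8 CPM (log2 -0.90, SE 0.129, adjusted p = 0.00497).

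Of the small leucine-rich proteoglycans, which coat collagen fibrils, 2 were tested and both fell. Bgn (biglycan, Entrez 12111, chromosome X, 73483601 to 73495936) had 303 and 347 CPM in controls 1 and 3 and 108, 112 and 99.1 CPM in verapamil 1, 2 and 3 (log2 -1.61, SE 0.108, adjusted p = 0.000543). Dcn (decorin) had 42.6 and 33.9 CPM in the controls and 20.5, 17.4 and 19.7 CPM with verapamil, a log2 fold change of -0.99 (SE 0.143, adjusted p = 0.00495). Here control 1 was the higher one, unlike for most of the genes. Lum, which encodes lumican and follows Dcn on chromosome 10 after 47337 bases, had only 2 counts in the controls and 4 with verapamil, with a ratio of 1.52 (95% counting interval 0.218 to 16.8). Its 0 counts in control 3 allow a level of up to 0.128 CPM (3 counts). Lum was thus at the edge of detection in both groups, next to a gene that was clearly expressed.

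All 5 genes of crosslinking and processing fell. Serpinh1 (Entrez 12406, chromosome 7, 99345375 to 99353239, minus strand) encodes HSP47, the collagen chaperone of the endoplasmic reticulum. It had 107 and 104 CPM in controls 1 and 3 and 29.2, 29.4 and 29.5 CPM in verapamil 1, 2 and 3, the closest replicates of any member in the treated group (log2 -1.84, SE 0.091, adjusted p = 0.000437). Pcolce, which enhances the removal of the C-terminal propeptide, had 64.3 and 46.4 CPM against 11.8, 10.7 and 11.2 CPM (log2 -2.30, SE 0.162, adjusted p = 0.000609). It shares 2.93% of its exon bases with Fbxo24.

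The lysyl oxidase genes, which start crosslinks by oxidising lysine, had log2 fold changes from -2.31 to -0.80. Loxl1, linked to elastic fibres, had 32.3 and 25.96 CPM in the controls and 5.36, 6.97 and 5.23 CPM with verapamil, a log2 fold change of -2.31 (SE 0.175, adjusted p = 0.000694). Lox had 163 and 204 CPM against 100.3, 96.3 and 101 CPM (log2 -0.89, SE 0.12, adjusted p = 0.00398). Loxl2, which acts on type IV collagen, had 44.9 and 65.6 CPM against 31.7, 32.8 and 30.5 CPM (log2 -0.80, SE 0.171, adjusted p = 0.019). Its call did not hold without verapamil 1, 2 or 3 (adjusted p from 0.0689 to 0.0857), and its log2 fold change was -0.50 without control 3. Per kilobase of transcript, Loxl1 stood at 0.285 and 0.183 times Lox in controls 1 and 3 and at 0.0769, 0.104 and 0.0747 times Lox in verapamil 1, 2 and 3, with no overlap between the groups, whereas the ratio of Loxl2 to Lox overlapped (0.246 and 0.287 against 0.282, 0.303 and 0.27).

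Chains that assemble together had ratios that overlapped between the groups for some proteins and not for others, on the scale of CPM per kilobase of the longest coding transcript. Col1a1 stood at 0.606 and 0.627 times Col1a2 in controls 1 and 3 and at 0.48, 0.539 and 0.474 times in verapamil 1, 2 and 3. The ratio of Lamb1 to Lamc1 was 1.22 and 1.09 in the controls and 0.426, 0.377 and 0.297 with verapamil, the widest separation of the 6 chain pairs compared. Col6a1 to Col6a2 was instead higher in every treated library, at 2.07 and 2.14 in the controls and 3.62, 3.06 and 2.75 with verapamil. In these 3 pairs the groups did not overlap, and in the other 3 they did. Col4a1 to Col4a2 was 1.63 and 1.58 in the controls and 1.26, 1.71 and 1.62 with verapamil. Col5a1 to Col5a2 was 0.465 and 0.367 against 0.344, 0.406 and 0.373, and Col6a3 to Col6a2 was 0.373 and 0.48 against 0.356, 0.679 and 0.37. These ratios are descriptions, given with no test.

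**Figure D3:**
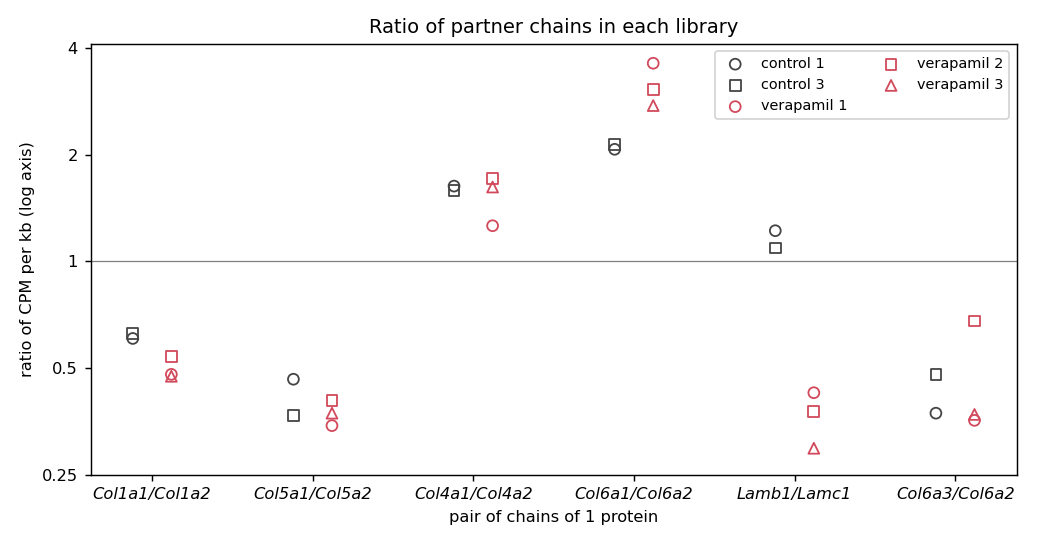
Ratio of the levels (CPM per kb, log axis, y) of 6 pairs of partner chains (x) in each of the 2 control (grey) and 3 verapamil (red) libraries. The red symbols lie apart from the grey ones for Col1a1/Col1a2, Col6a1/Col6a2 and Lamb1/Lamc1 and overlap them for the other pairs.

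The 2 controls differed from each other for many of these genes, and the difference followed transcript length. Over the 35 genes the median SD was 21.5% of the mean in the controls and 8.46% with verapamil. The test used 1 dispersion per gene for both groups, and the control spread rests on a single pair. Control 3 was above control 1 for 29 of the 35 genes, with a median absolute difference of 0.44 on the log2 scale. Over all 12619 tested genes it was above for 7129. The median transcript length was 5348 bases for the 35 genes and 3160 bases for all tested genes. The 6 genes with the opposite order were Pcolce, Dcn, Loxl1, Serpinh1, Sparc and Fbln1, all with transcripts of at most 3659 bases. The log2 ratio of control 3 to control 1 ran from -0.47 for Pcolce (1626 bases) to 1.09 for Col12a1 (11511 bases) and Nid1 (6091 bases). Across the 35 genes, which share the same libraries, its Pearson correlation with log2 length was 0.78 (Spearman 0.77), and across 12345 tested genes it was 0.61 (Spearman 0.67). The log2 fold change with verapamil had a correlation with length of 0.21 over the 35 genes and 0.19 over all genes. For 33 of the 35 genes the change between the groups was larger than the gap between the controls, Nid1 and Hspg2 included, and Lamc1 and Col12a1 were the exceptions. With the length trend of each library removed, 33 of the 35 were called lower and 0 higher, the added gene being Col12a1 (log2 -1.21, adjusted p = 0.000958). Over all genes 4994 were called in that setting instead of 3200, and 45.7% of the called genes were higher instead of 39.4%. The part of transcript length in the differences between the groups was not tested further.

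**Figure D4:**
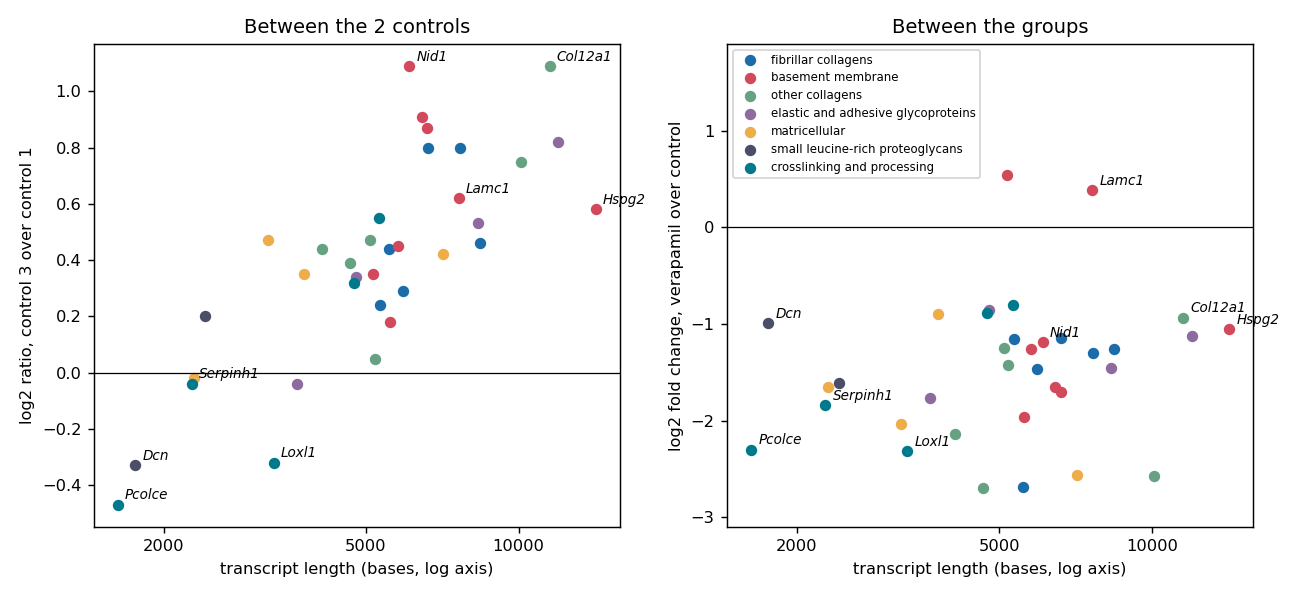
Log2 ratio of control 3 to control 1 (left panel, y) and log2 fold change of verapamil over control (right panel, y) against the length of the longest coding transcript (x, bases, log axis) for the 35 tested matrix genes, coloured by class. The left panel rises from Pcolce at -0.47 to Col12a1 at 1.09, and in the right panel the correlation with length is 0.21, with Pcolce at -2.30 and Col12a1 at -0.93.

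Other genes of the matrix were lower in part, beside 15.4% of all tested genes called lower and 9.99% called higher. Of 13 tested collagen genes outside the 37, 6 fell (46.2%) and 0 rose (median log2 -1.06). They included Col2a1, the cartilage collagen, with 13.4 ± 2.11 CPM in the controls (SD, n = 2) and 1.81 ± 0.272 CPM with verapamil (SD, n = 3), a log2 fold change of -2.89 (edgeR adjusted p = 0.000543), and Col27a1 (log2 -1.96, adjusted p = 0.00533). Without verapamil 1, 2 or 3 the number that fell was 4, 4 and 3. Of 42 other glycoproteins and proteoglycans 33 fell (78.6%) and 2 rose (4.76%), with a median of -1.49. Thbs1, the gene of thrombospondin-1, fell from 699.5 ± 229 to 154 ± 12.8 CPM (log2 -2.19, adjusted p = 0.00123), and Ecm1 fell from 340.0 ± 91.9 to 155 ± 8.46 CPM (log2 -1.13, adjusted p = 0.00576). The 2 that rose, of which 1 was called without verapamil 1, 2 or 3, were Mfge8, which bridges dying cells to phagocytes, from 568 ± 159 to 1281 ± 44.7 CPM (log2 1.17, adjusted p = 0.00618), and Emilin2 (log2 0.56, adjusted p = 0.0203).

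Genes that fold and modify collagen were split. Of 27 tested 13 fell (48.1%) and 1 rose (3.7%), with a median of -0.63. Fkbp10, a prolyl isomerase for procollagen, fell by 1.74 (adjusted p = 0.000865), and Bmp1, the proteinase that removes the C-terminal propeptide and the partner of Pcolce, fell from 36.3 ± 0.477 to 11.95 ± 0.434 CPM (log2 -1.60, adjusted p = 0.000523). Loxl3 fell by 1.47 (adjusted p = 0.00079), and Ppib fell by 0.61 (adjusted p = 0.0473). Colgalt1, which glycosylates hydroxylysine, rose from 252 ± 7.07 to 338 ± 6.09 CPM (log2 0.43, adjusted p = 0.0175). That higher call was lost without any 1 verapamil library and under upper quartile factors, and the number that fell was 8 without verapamil 1 or 2, 9 without verapamil 3 and 18 with the length trend removed. The summed level of this list was 2281 and 2282 CPM in controls 1 and 3 and 2259, 2242 and 2250 CPM in verapamil 1, 2 and 3. The largest part of this sum was P4hb, with 625 and 617 CPM in the controls and 688, 669 and 651 CPM with verapamil. P4hb was not called (adjusted p = 0.389). The sum held changes in both directions, with Ppib going from 193 to 127 CPM and Colgalt1 from 252 to 338 CPM. It thus does not show the falls of single genes.

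Of 24 receptors for matrix proteins 10 fell (41.7%) and 2 rose (8.33%, near the 9.99% of all tested genes), with a median of -0.53. Oscar, a collagen receptor of osteoclasts, fell by 1.53 (adjusted p = 0.000865), Mrc2, which takes up collagen, by 1.36 (adjusted p = 0.000907), Sdc4 by 0.86 (adjusted p = 0.00666) and Itgav by 0.78 (adjusted p = 0.0453). Dag1, the dystroglycan that binds laminin, rose by 0.85 (adjusted p = 0.0275) and the inhibitory collagen receptor Lair1 rose by 0.46 (adjusted p = 0.0367). In the TGF-β axis, a known inducer of matrix genes, 8 of 20 fell (40%, against 15.4% of all tested genes) and 2 rose (10%, against 9.99%), with a median of -0.21. Ltbp1, whose product binds latent TGF-β, fell by 1.97 (adjusted p = 0.000531), while the receptor gene Tgfbr2 rose by 0.46 (adjusted p = 0.0419) and Smad2 by 0.36 (adjusted p = 0.0469). In both lists the higher calls came to 0 without verapamil 1, 2 or 3 and to 5 without control 3, and under upper quartile factors they came to 1 for the receptors and 0 for the TGF-β axis.

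Most tested markers of mesenchymal cells, which make matrix in bone marrow, fell as well, but not all. Of 13 tested stromal and osteoblast identity markers that encode no matrix protein, 9 fell (69.2%, against 15.4% of all tested genes) and 0 rose (median -1.51), and their summed level was 228 and 288 CPM in the controls and 143 to 149.6 CPM with verapamil. Cxcl12 fell from 45.5 ± 1.88 to 9.32 ± 0.0666 CPM (log2 -2.29, adjusted p = 0.000407) and Prrx1 from 45.1 ± 9.79 to 16.03 ± 0.865 CPM (log2 -1.49, adjusted p = 0.00171). Pdgfra and Pdgfrb, receptors of mesenchymal cells, fell (log2 -0.83 and -1.51, adjusted p = 0.026 and 0.00144). Of the osteoblast genes in the list, chosen here after their values were seen, Alpl had 38 and 33 counts in controls 1 and 3 and 3, 0 and 3 counts in verapamil 1, 2 and 3 (adjusted p = 0.00577). Sp7 (log2 -1.99, adjusted p = 0.00477) and Dlx5 (log2 -1.96, adjusted p = 0.0216) fell as well. The 4 tested markers of this list that were not called included Runx2 (log2 -0.22, edgeR adjusted p = 0.464) and Lepr (log2 -0.59, adjusted p = 0.109). The others were Cdh11 (log2 -0.47, adjusted p = 0.2125) and Pdpn, whose estimate was positive (log2 0.19, adjusted p = 0.312). Cdh11 had 46.9 and 88.3 CPM in controls 1 and 3 and 45.5, 51.0 and 49.9 CPM in verapamil 1, 2 and 3. Bglap had 9 and 11 counts against 0, 4 and 8, and Dmp1 had 1 and 5 counts against 0, 2 and 0. Both were too low to test, and Thy1, Meox2 and Ebf2 did not pass the filter either. Thy1 had 52 counts in control 1, 7 in control 3 and 2, 1 and 6 in verapamil 1, 2 and 3. The 18 markers of this list found among the measured genes each had at least 1 count in the 5 libraries together. All 7 tested mural cell markers fell (against 15.4% of all tested genes, median -2.45), from a sum of 427 and 413 CPM to 75.2, 85.0 and 74.9 CPM. Among them were Acta2 (log2 -2.51, adjusted p = 0.000407) and Tagln (log2 -2.33, adjusted p = 0.000407). The part of mesenchymal cells in the lower matrix levels was not tested.

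Endothelial markers, another possible source of basement membrane, had 3 of 6 lower (50%) and 2 higher (33.3%), against 15.4% and 9.99% of all tested genes. The 2 that rose were Vwf (83.6 ± 19.5 to 307 ± 25.4 CPM, adjusted p = 0.00123) and Kdr (4.17 ± 1.71 to 30.1 ± 2.57 CPM, adjusted p = 0.00118). The 3 that fell were Plvap, Emcn and Egfl7, and without verapamil 1, 2 or 3 the number was 2, 1 and 2. All 3 were low. In controls 1 and 3 Plvap had 41 and 42 counts, Emcn 42 and 35, and Egfl7 18 and 12. In verapamil 1, 2 and 3 they had 7, 9 and 12, 4, 10 and 13, and 3, 4 and 6 counts. The summed level of the endothelial markers was 78.7 and 108 CPM in controls 1 and 3 and 309 to 365 CPM with verapamil. Nearly all of it was Vwf and Kdr, while Tek, Tie1, Cldn5 and Cdh5 were at or below 1.025 CPM in every library. Osteoclast markers, which check the labelled cell type, were detected in all libraries at very different levels, from at least 545 CPM for Acp5, Ctsk and Mmp9 to 3.99 CPM for Ocstamp in verapamil 3. Of the 10 markers 7 fell (70%, against 15.4% of all tested genes). Among them were Acp5, Mmp9 and Ctsk (log2 -1.85, -1.81 and -1.22, edgeR adjusted p = 0.000437, 0.000437 and 0.00136). Atp6v0d2 rose (log2 0.98, adjusted p = 0.00158). The 10 osteoclast markers summed to 7026 and 7702 CPM in the controls and 3304 to 3454 CPM with verapamil. Of 10 macrophage markers 6 fell (60%, against 15.4% of all tested genes) and Lyz2 rose (log2 0.81, adjusted p = 0.00317). Their sum was 26630 and 27490 CPM in the controls and 40060 to 43690 CPM with verapamil, most of it Lyz2. Without Lyz2 the other 9 summed to 5536 and 5681 CPM in the controls and to 4130, 4111 and 4075 CPM with verapamil, the opposite direction. The part of these cell types in the matrix levels was not tested. Which cells held the matrix transcripts was not measured.

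**Figure D5:**
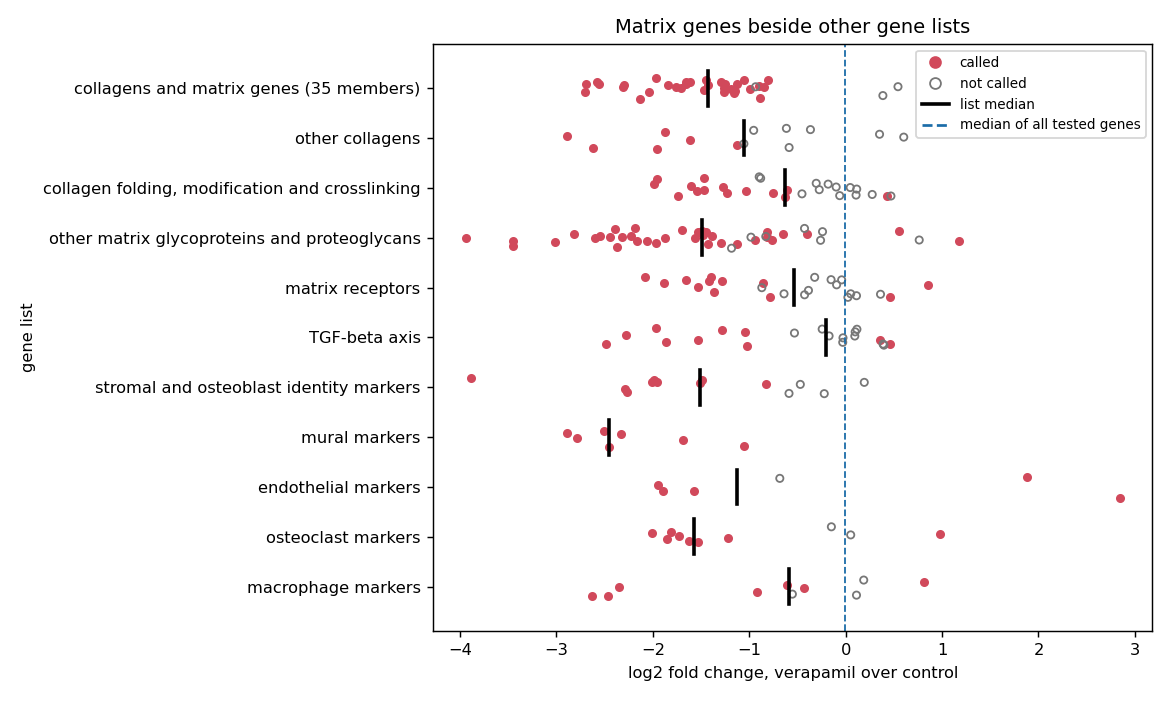
Log2 fold change, verapamil over control (x axis), of every tested gene of the matrix genes and of 10 other lists (y axis), red where called and open where not, with a black bar at each list's median and a dashed line at the median of all tested genes. The matrix genes have a median of -1.42 and the mural markers one of -2.45, against -0.01 for all tested genes.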

How the data were processed

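RNA from osteoclast cultures with and without verapamil was sequenced after a SMARTER mRNA library preparation, per the labels' protocols. The authors' deposited table gives an estimated count, not always whole, for each gene and library, and its column sums differ, so it was taken as not normalized. Per the submitters' processing notes the builds were GRCm38 and mm10. Its aligner, counting software and gene models were not given in the sources used here. Library totals were 20202340 to 21494523 estimated counts. Counting intervals are exact 95% binomial intervals and, like the limits on 0 counts, cover counting error only.

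Counts were rounded. In R 4.3.3, edgeR 4.0.16 applied TMM scaling, its default filter (minimum count 10, minimum total 15) and a quasi-likelihood test with group as the only term (12619 genes, 3 residual and 3.28 prior degrees of freedom). With 3 labelled samples in each group, 2 controls were compared with 3 verapamil libraries. P-values were adjusted over all tested genes (Benjamini-Hochberg), with a threshold of 0.05. Standard errors came from the ratio of the log2 fold change, without its sign, to the root of its F statistic, and ± is the SD. The script was tested on simulated data. Alternatives were other factors, DESeq2 1.42.0, other filters, the replicate number as a block, leaving out each library and, chosen after seeing the data, removing length trends (lowess span 0.5).

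Lengths are of the longest coding transcript in GENCODE M21, and shared bases come from it too. Positions come from RefSeq (GRCm38.p6). The members and lists were chosen with earlier results of these data known. By rule, values in every library were given for members of at least 1 CPM, and up to 4 called genes per list and direction could be named, by mean CPM. Others named from the lists were chosen after their values were seen. One gene that this rule would name is not reported here.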

Additional observations from a re-analysis of the deposited data

How the results depend on the processing

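None of the 35 tested matrix genes changed sign in any of the 12 alternatives. The number called lower was 32 in the main analysis, 32 or 33 under other scaling factors, filters, DESeq2 and the length correction, and 26 to 33 when 1 library was left out. Of the 32 genes, 26 were called in every alternative, and Col5a2, Col11a1, Nid1, Hspg2, Fbn1 and Loxl2 were not. The number called higher was 0, and 0 to 2 when 1 library was left out (Lamc1 and Col15a1 without control 3). Over all genes 3200 were called, 4994 with the length trend removed, and 1460 to 7808 when 1 library was left out. Fits with 1 control hold no spread between controls, and fits without a verapamil library have fewer degrees of freedom. The median of the 35 genes was -1.63 without control 1 and -1.15 without control 3. Upper quartile factors put the median of all genes at -0.133, and 28.2% of the called genes were higher instead of 39.4%, with a median of -1.54 for the matrix genes. With the replicate number as a block, 3317 genes were called, 33 matrix genes lower and 0 higher, with Col12a1 added (log2 -1.01). That fit has fewer degrees of freedom too. Verapamil 2 had no control of its number in the fit and so added nothing to the difference between the groups. Under the block the genes called higher went from 1 to 0 among those that fold and modify collagen, from 2 to 1 among matrix receptors and from 2 to 0 in the TGF-β axis. The numbers are not known to pair the samples, since only 2 pairs were available, with correlations of their deviations of 0.289 and 0.0224. Depth limits Eln and Lum, with 11 and 6 counts in all.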
